A study of Mus musculus with 8 samples.

Results

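The 10 endothelial genes described here carry the barrier function of brain vessels, and they were taken by symbol, as 10 of the 25239 genes listed, with earlier results of these data known. *Cldn5*, *Ocln*, *Tjp1*, *Cdh5* and *Pecam1* encode junction proteins, *Slc2a1*, *Abcb1a* and *Mfsd2a* encode transporters, and *Tek* and *Kdr* encode receptors. RNA was measured in the corpus callosum, a white matter tract, of mice with bilateral common carotid artery stenosis (BCAS), in which microcoils around both carotid arteries lower cerebral blood flow, or after a sham operation without coils. WT mice and mice labelled TRPA1-KO (Trpa1 -/-) were compared. TRPA1 is a redox-sensitive cation channel. The labels give the strain C57BL/6. Per the study's methods the mice were male C57BL/6J, 8 to 12 weeks old, and the TRPA1-KO line had been backcrossed to C57BL/6J. Each label had 1 sham library from day 14 and 1 BCAS library from each of days 7, 10 and 14, so 8 libraries in all. The deletion of the TRPA1-KO line was carried by all cells and was not limited to vessels. The study's methods state in general that a sample came from a single mouse. P-values measure the spread between these libraries, in which day and replicate cannot be told apart.

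Brain endothelial cells are sealed to each other by tight junctions, in which claudin and occludin strands are tied to the actin cytoskeleton by scaffold proteins such as ZO-1, and by adherens junctions built on VE-cadherin. They take up glucose through GLUT1, pump lipophilic compounds back into blood through P-glycoprotein, and suppress vesicular transport through the lipid transporter MFSD2A. The receptors TIE2 and VEGFR2 read angiopoietins and VEGF, which set vessel stability, growth and permeability. In white matter, the same vessels supply oligodendrocytes and are known to be sensitive to low flow.

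Libraries held between 7896071 and 12952093 reads on genes, and values are normalized read counts (CPM, the reads of a gene scaled to the effective library size). *Trpa1* reads went against the labels, with 0 to 1 read per library labelled WT and 3 to 11 per library labelled TRPA1-KO. The sources used here do not give the exons deleted in this line, and values per gene cannot separate them, so groups are named by their labels throughout. Whether labels were exchanged was not tested, and every difference between labels given here would change sign if they were. The BCAS library labelled WT from day 7 stood apart. Its 10 microglia markers summed to 1153 CPM, against 361 to 657 CPM in the other libraries. Its 10 genes listed for activated endothelium, some of them also made by glia, summed to 182 CPM, against 70.7 to 105 CPM. The endothelium itself was present in every library, with no member below 67 reads.

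No member was called in any comparison. The members whose libraries did not overlap sham are given with the share of all genes tested that did the same. In BCAS-operated mice labelled WT, the junction genes *Cldn5*, *Tjp1*, *Cdh5* and *Pecam1* were above both sham libraries in each of 3 libraries, as were 8.89% of all genes tested. In BCAS-operated mice labelled TRPA1-KO, the transporters *Slc2a1* and *Mfsd2a* were below both sham libraries in each of 3 libraries, as were 10.2% of all genes tested. In either direction, 4 of 10 members did not overlap sham in BCAS WT (19.9% of all genes). In BCAS TRPA1-KO 2 of 10 did not (18.6% of all genes), which is near that share. The lowest *Mfsd2a* values, 17.0 and 15.2 CPM, were those of days 7 and 10 in BCAS WT. The remaining junction gene, *Ocln*, and the remaining transporter, *Abcb1a*, overlapped sham under both labels. No member had an adjusted p below 0.05 in any of 6 comparisons (limma, Benjamini-Hochberg over 18123 genes), and the same count of 0 was given by edgeR and DESeq2. RNA of the whole tissue was measured, so fewer endothelial cells and less RNA per endothelial cell cannot be told apart.

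**Figure D1:**
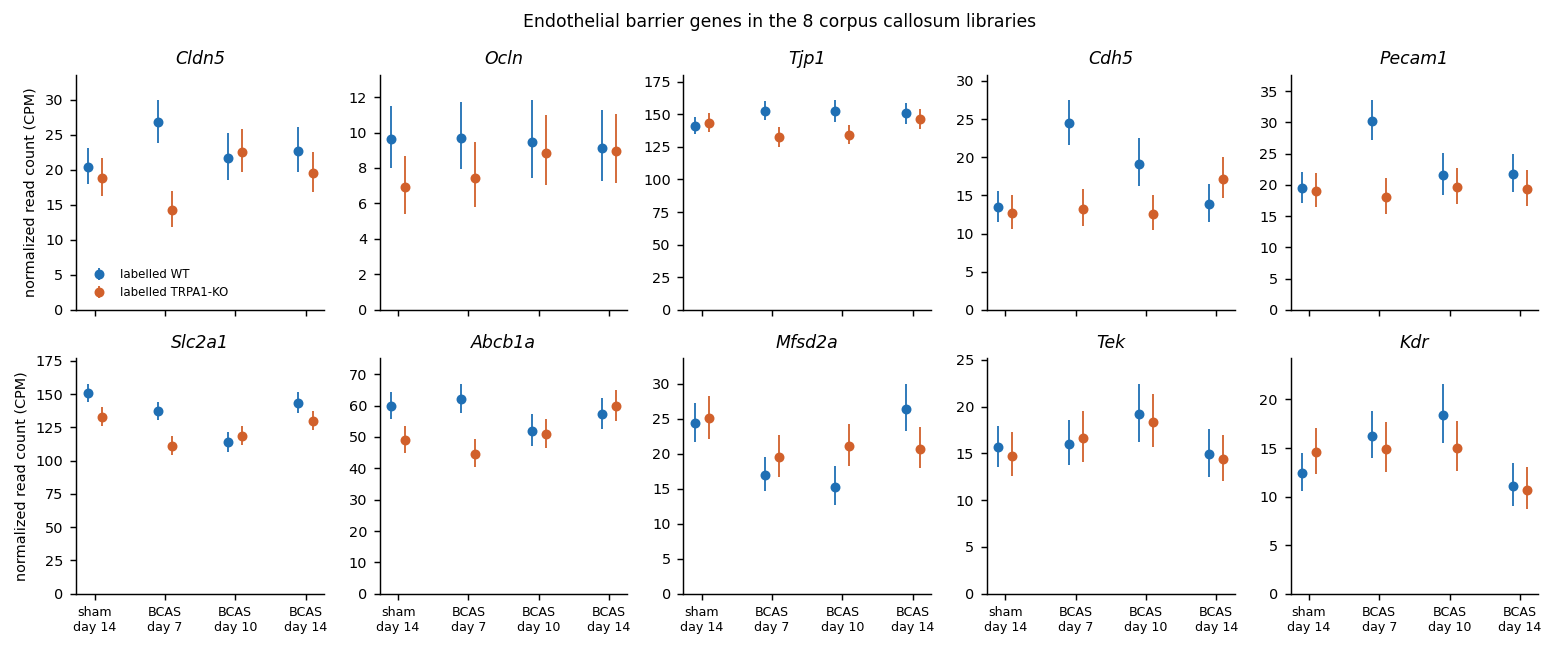
Normalized read count (CPM, vertical axis, from 0) of each barrier gene in the 8 libraries, by operation and day (horizontal axis) and label (colour). Points are libraries and bars are 95% Clopper-Pearson intervals, which cover counting error only. *Cdh5* and *Pecam1* peak in the BCAS library labelled WT from day 7, at 24.5 and 30.2 CPM, and *Slc2a1* and *Mfsd2a* in all BCAS libraries labelled TRPA1-KO lie below both sham libraries.

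The promoters of 3 members are shown as examples of transporter and junction genes. *Slc2a1* and *Mfsd2a* are the transporters whose BCAS TRPA1-KO libraries did not overlap sham, without passing the test, and *Cldn5* is the junction gene best known for the brain barrier. They were chosen after their values were seen. Each window holds the 250 bases before the RefSeq transcript start (GRCm38.p6), read 5′ to 3′ on the strand of the gene. *Slc2a1* lies on the plus strand at chr4:119108495-119108744, *Mfsd2a* on the minus strand at chr4:122961189-122961438, and *Cldn5* on the plus strand at chr16:18776597-18776846. Capitals mark ACGTG, or CACGT on the other strand, 1 form of the core of the element bound by hypoxia-inducible factors.

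Slc2a1: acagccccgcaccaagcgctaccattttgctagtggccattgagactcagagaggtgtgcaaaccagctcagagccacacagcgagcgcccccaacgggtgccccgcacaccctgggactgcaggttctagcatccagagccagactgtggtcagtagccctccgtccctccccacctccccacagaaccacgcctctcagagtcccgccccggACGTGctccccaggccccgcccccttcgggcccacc
Mfsd2a: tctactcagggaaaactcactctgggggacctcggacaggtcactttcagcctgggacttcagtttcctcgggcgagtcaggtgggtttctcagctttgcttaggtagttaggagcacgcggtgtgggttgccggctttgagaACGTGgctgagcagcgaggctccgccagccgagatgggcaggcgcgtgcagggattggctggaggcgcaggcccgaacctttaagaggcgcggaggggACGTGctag
Cldn5: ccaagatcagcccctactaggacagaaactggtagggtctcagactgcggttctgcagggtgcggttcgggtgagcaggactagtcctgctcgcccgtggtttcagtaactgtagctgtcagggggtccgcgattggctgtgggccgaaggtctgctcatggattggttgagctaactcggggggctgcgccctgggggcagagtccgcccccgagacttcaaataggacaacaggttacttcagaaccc

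This form occurred once in the *Slc2a1* window, starting at base -36 from the transcript start, and at bases -107 and -9 in the *Mfsd2a* window. It was absent from the *Cldn5* window. Among the 8 members with a promoter in the RefSeq table, only these 2 held ACGTG or CACGT, and 16.6% of 27025 promoters of the same length did. The other form, GCGTG or CACGC, was not counted and was also present, as in the windows of *Slc2a1*, *Mfsd2a*, *Kdr* and *Ocln*. GGGCGG or CCGCCC (the GC box) was in 5 of the 8, against 32.9% of all promoters, namely in *Slc2a1*, *Kdr*, *Tjp1*, *Ocln* and *Cldn5*. AGGAAG or CTTCCT, an ETS core, was in 1 of the 8 (29.2% of all), CTTTGA or TCAAAG, a TCF/LEF core, in 2 (14.05%), and ACAATG or CATTGT, a SOX core, in 0 (10.99%). A TCF/LEF match was in the *Mfsd2a* window. The window of *Abcb1a* (chr5:8566841-8567090) held 2 ETS matches and 2 TCF/LEF matches. That window lies far upstream of the annotated start of the gene, and the bases after its start were not found in a GENCODE transcript of *Abcb1a*, so it is doubtful. None of these overlapped the marked matches. Such matches describe letters only.

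Per kilobase of merged exons, the glucose transporter gene *Slc2a1* had the highest level of the members, 37.0 ± 4.06 CPM per kb (SD, n = 8). *Tjp1* followed at 18.4 ± 1.01 CPM per kb, *Cldn5* at 14.7 ± 2.56 CPM per kb, *Abcb1a* at 9.95 ± 1.14 CPM per kb and *Mfsd2a* at 9.40 ± 1.75 CPM per kb. *Cdh5* (3.76 ± 1.002 CPM per kb), *Tek* (3.44 ± 0.37) and *Pecam1* (3.39 ± 0.62) were close to each other, and *Ocln* (2.07 ± 0.24) and *Kdr* (1.57 ± 0.29) were lowest. Ranges of neighbours did not overlap between *Slc2a1* and *Tjp1*, *Mfsd2a* and *Cdh5*, and *Pecam1* and *Ocln*. *Abcb1a* and *Mfsd2a* changed places in 4 of 8 libraries, as did *Cdh5* and *Tek*. *Slc2a1* and *Tjp1* are also made by cells outside the endothelium, such as astrocytes, so their levels need not be endothelial alone.

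The members' coefficients of variation over the 8 libraries ran from 5.45% (*Tjp1*) to 26.6% (*Cdh5*) with a median of 14.6%, against a median of 9.13% for 9490 genes with a mean in the same range, 8.76 to 144 CPM. Abundance was not matched gene by gene, and counting error differs between members, since *Ocln* rested on 67 to 123 reads per library and *Tjp1* on 1187 to 1805 reads.

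*Cldn5* encodes claudin-5, the main strand protein of the brain endothelial tight junction (ENSMUSG00000041378.2, chromosome 16, 18776847 to 18778262, plus strand, 1 exon, positions of all members from the GENCODE annotation of GRCm38). It was measured at 26.8, 21.7 and 22.7 CPM on days 7, 10 and 14 in the BCAS libraries labelled WT. The BCAS libraries labelled TRPA1-KO had 14.2, 22.5 and 19.5 CPM, and the sham libraries had 20.4 (WT) and 18.8 CPM (TRPA1-KO). The 3 BCAS libraries labelled WT were above both sham libraries, and overlapped those labelled TRPA1-KO, which reached both the lowest and a middle value. The mean was 1.26-fold higher in BCAS WT than in BCAS TRPA1-KO (log2 fold change 0.34, SE 0.16, limma adjusted p = 0.98; exact permutation p = 0.20).

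*Ocln* (chromosome 13, 100496507 to 100552718, minus strand) encodes occludin, a tight junction protein that lines the strands together with claudins. Its values were 9.69, 9.45 and 9.11 CPM in BCAS WT, 7.46, 8.86 and 8.95 CPM in BCAS TRPA1-KO, and 9.62 (WT) and 6.90 CPM (TRPA1-KO) after sham. Every library labelled WT was above every library labelled TRPA1-KO, operation aside. The closest, 9.11 and 8.95 CPM on day 14 of BCAS, rested on 83 and 86 reads. Their counting intervals, 7.25 to 11.29 and 7.16 to 11.05 CPM, overlapped widely. Over all 8 libraries the means were 9.47 ± 0.26 CPM (SD, n = 4) and 8.04 ± 1.02 CPM (SD, n = 4), with an exact permutation p of 0.0286, the smallest that 4 against 4 libraries can give. The same comparison in limma gave a log2 fold change of 0.22 (SE 0.13, adjusted p = 0.999), and labels did not overlap in this direction for 1.31% of all genes tested. *Ocln* was the only member whose labels did not overlap over all libraries.

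*Tjp1* (chromosome 7, 65296165 to 65527781, minus strand) encodes ZO-1, the scaffold under the junction. It was nearly constant in BCAS WT, at 153, 152 and 151 CPM, while BCAS TRPA1-KO had 132, 134 and 146 CPM and sham 141 (WT) and 143 CPM (TRPA1-KO). The 3 BCAS libraries labelled WT were above the other 5 libraries, and the share of all genes with this split was not computed. The ratio of means between the BCAS groups was 1.10 (log2 fold change 0.14, SE 0.070, limma adjusted p = 0.98; exact permutation p = 0.10, the smallest that 3 against 3 libraries allow).

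*Cdh5* (chromosome 8, 104101625 to 104144511, plus strand) encodes VE-cadherin, the adhesion protein of endothelial adherens junctions. It had the widest spread, 24.5, 19.2 and 13.8 CPM in BCAS WT, 13.2, 12.6 and 17.2 CPM in BCAS TRPA1-KO, and 13.5 (WT) and 12.7 CPM (TRPA1-KO) after sham. The days 7 and 10 were high with the label WT and day 14 with the label TRPA1-KO, and the BCAS groups overlapped. Against sham, BCAS WT was 1.47-fold higher (log2 fold change 0.48, SE 0.21, limma p = 0.042, adjusted p = 0.91; exact permutation p = 0.20, the smallest possible). Without the day 7 library this log2 fold change was 0.30, and the unadjusted p below 0.05 was lost then, with no filter on low values, and without either sham library, among others.

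*Pecam1* (chromosome 11, 106654217 to 106750628, minus strand) encodes CD31, an adhesion molecule of endothelial cell contacts that is also present on some leukocytes and platelets. It was 30.2, 21.6 and 21.7 CPM in BCAS WT, 18.0, 19.6 and 19.4 CPM in BCAS TRPA1-KO, and 19.5 (WT) and 19.1 CPM (TRPA1-KO) after sham. All BCAS libraries labelled WT were above the other 5, and the day 7 library was far above. For this split, too, the share of all genes was not computed. The BCAS groups differed by 1.29-fold in their means (log2 fold change 0.33, SE 0.14, limma p = 0.041, adjusted p = 0.98; exact permutation p = 0.10). Without the day 7 library labelled WT, the log2 fold change was 0.18. The unadjusted p below 0.05 was lost then, with no filter on low values, and without any one of the BCAS libraries labelled TRPA1-KO.

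*Slc2a1* (chromosome 4, 119108711 to 119137983, plus strand) encodes GLUT1, through which glucose enters the brain. Its values after sham were 151 (WT) and 133 CPM (TRPA1-KO), and after BCAS 137, 114 and 143 CPM in WT and 111, 119 and 130 CPM in TRPA1-KO. The BCAS libraries labelled TRPA1-KO were below both sham libraries, with day 14 just under the sham library of the same label. The ratio of means was 0.845 (log2 fold change -0.24, SE 0.11, limma p = 0.049, adjusted p = 1; exact permutation p = 0.20, the smallest that 3 against 2 libraries allow). Against the sham library of the same label alone, the log2 fold change was -0.15. The unadjusted p below 0.05 was lost there, with other filters on low values, with equalized medians, in DESeq2, and without day 7 or day 10 of BCAS TRPA1-KO.

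*Mfsd2a* (chromosome 4, 122946850 to 122961188, minus strand) encodes the lipid transporter that holds back transcytosis in brain endothelium. It was 24.3 (WT) and 25.0 CPM (TRPA1-KO) after sham, 17.0, 15.2 and 26.4 CPM in BCAS WT and 19.5, 21.0 and 20.7 CPM in BCAS TRPA1-KO. The lowest values were those of days 7 and 10 with the label WT, and day 14 of the same label was the highest of all 8. BCAS TRPA1-KO was 0.827 of sham (log2 fold change -0.26, SE 0.19, limma adjusted p = 1) and BCAS WT 0.792 of sham (log2 fold change -0.36, SE 0.19, adjusted p = 0.91). *Mfsd2a* was the only member with a log2 fold change below 0 in BCAS WT against BCAS TRPA1-KO (-0.10, SE 0.18, adjusted p = 0.98).

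*Abcb1a* (chromosome 5, 8660077 to 8748575, plus strand) encodes P-glycoprotein, the drug efflux pump of the luminal membrane. Its values were 62.3, 52.0 and 57.3 CPM in BCAS WT, 44.6, 50.9 and 59.9 CPM in BCAS TRPA1-KO, and 59.9 (WT) and 49.2 CPM (TRPA1-KO) after sham. Groups overlapped in all 5 comparisons of groups. BCAS WT and BCAS TRPA1-KO differed by 1.10-fold (log2 fold change 0.15, SE 0.11, limma adjusted p = 0.98). Reads shared with its near copy *Abcb1b* could be split between both genes by the counting, which makes its level uncertain. The annotation also places antisense genes over *Slc2a1* and *Cdh5*, and the strand setting of the counting is not given in the sources used here, so reads from both strands cannot be told apart for them.

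*Tek* (chromosome 4, 94739289 to 94874976, plus strand) encodes TIE2, the angiopoietin receptor. The labels were close to each other on each day, with 16.0, 19.2 and 14.9 CPM in BCAS WT and 16.6, 18.4 and 14.4 CPM in BCAS TRPA1-KO on days 7, 10 and 14, and 15.6 (WT) and 14.8 CPM (TRPA1-KO) after sham. Both labels were highest on day 10. The difference between the BCAS groups was 0.02 on the log2 scale, with a 95% interval from -0.30 to 0.34.

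*Kdr* (chromosome 5, 75932827 to 75978458, minus strand) encodes VEGFR2, the main signalling receptor for VEGF. It was 16.3, 18.4 and 11.1 CPM in BCAS WT, 14.9, 15.1 and 10.7 CPM in BCAS TRPA1-KO, and 12.4 (WT) and 14.6 CPM (TRPA1-KO) after sham. As for *Tek*, day 10 was the highest in both labels. In BCAS TRPA1-KO days 10 and 7 of *Kdr* were nearly equal, at 141 and 134 reads. Unlike *Tek*, *Kdr* was below both sham libraries on day 14 under both labels. With 1 library per label and day, this order over days was not tested. The BCAS groups differed by 0.15 on the log2 scale (95% interval -0.30 to 0.59).

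**Figure D2:**
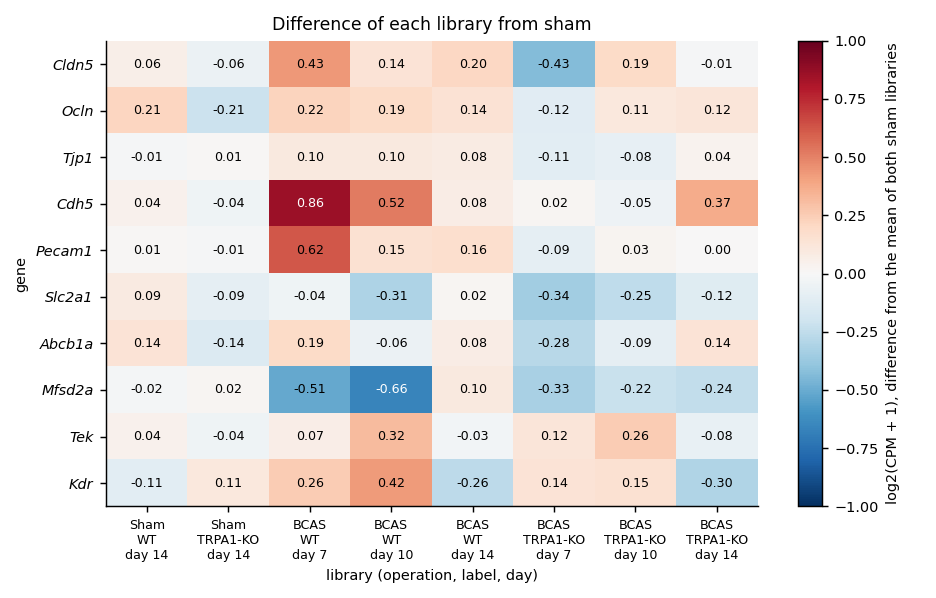
Difference of each library (columns) from the mean of both sham libraries for each barrier gene (rows), on the log2(CPM + 1) scale, red above and blue below. The BCAS library labelled WT from day 7 holds the largest positive value, 0.86 for *Cdh5*, and the one from day 10 the lowest, -0.66 for *Mfsd2a*.

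The comparison of both BCAS groups asks whether the label changed these genes under low flow. Of the 10 members, 9 had a log2 fold change above 0, that is, higher in BCAS WT (all genes tested, 50.3%), with a median of 0.15 against 0.00 over all genes. Groups did not overlap for *Ocln*, *Tjp1* and *Pecam1*, 3 of 10, all higher in BCAS WT (4.48% of all genes). An unadjusted limma p below 0.05 was given for *Pecam1* alone (4.20% of all genes), and 0 members passed after adjustment (0.0166%, 3 genes). All 5 junction genes were on the higher side, with a median of 0.33, against 0.13 for the 3 transporters and 0.08 for the 2 receptors. The 95% intervals of all members but *Pecam1* included 0, and the sizes they allow differed by gene, up to 0.30 for *Tjp1* and up to 0.82 for *Cdh5*, and down to -0.50 for *Mfsd2a*.

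The difference between the labels was widest on day 7. On that day the median over members of WT minus TRPA1-KO was 0.32 on the log2 scale, and *Cldn5* was 1.88-fold higher with the label WT. It was 0.07 on day 10 and 0.05 on day 14, and the sham libraries differed by 0.08 in the same direction. The day 7 library labelled WT held the highest value of 6 members (*Cldn5*, *Ocln*, *Tjp1*, *Cdh5*, *Pecam1* and *Abcb1a*), and the day 7 library labelled TRPA1-KO the lowest of 5 (*Cldn5*, *Tjp1*, *Pecam1*, *Slc2a1* and *Abcb1a*). The share of all genes with such an extreme in these libraries was not computed, so the counts are a description. Without the day 7 library labelled WT, the median of the BCAS comparison was 0.11, and without that labelled TRPA1-KO 0.095.

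BCAS WT was compared with both sham libraries to see the effect of the stenosis under that label. Of the members, 8 were above 0 (49.6% of all genes), with a median of 0.13. BCAS WT did not overlap sham for *Cldn5*, *Tjp1*, *Cdh5* and *Pecam1*, all higher (8.89% of all genes in this direction), and *Cdh5* alone had an unadjusted limma p below 0.05 (5.45% of all genes). No gene of the whole table passed after adjustment (percent called 0), where 988 had an unadjusted p below 0.05 and DESeq2 called 24. The junction genes had a median of 0.26 and the transporters -0.11.

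In the same fit, BCAS TRPA1-KO was compared with the same sham libraries, which both comparisons share. The log2 fold change was above 0 for 3 members (49.3% of all genes), with a median of -0.04, which turned to 0.02 without the day 7 library. *Slc2a1* and *Mfsd2a* did not overlap sham and were lower (10.2% of all genes in this direction), and *Slc2a1* had an unadjusted limma p below 0.05 (2.74% of all genes). After adjustment 0 members and 1 gene passed (0.00552%). All 3 transporters were below 0 with a median of -0.24, against -0.02 for the junction genes.

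**Figure D3:**
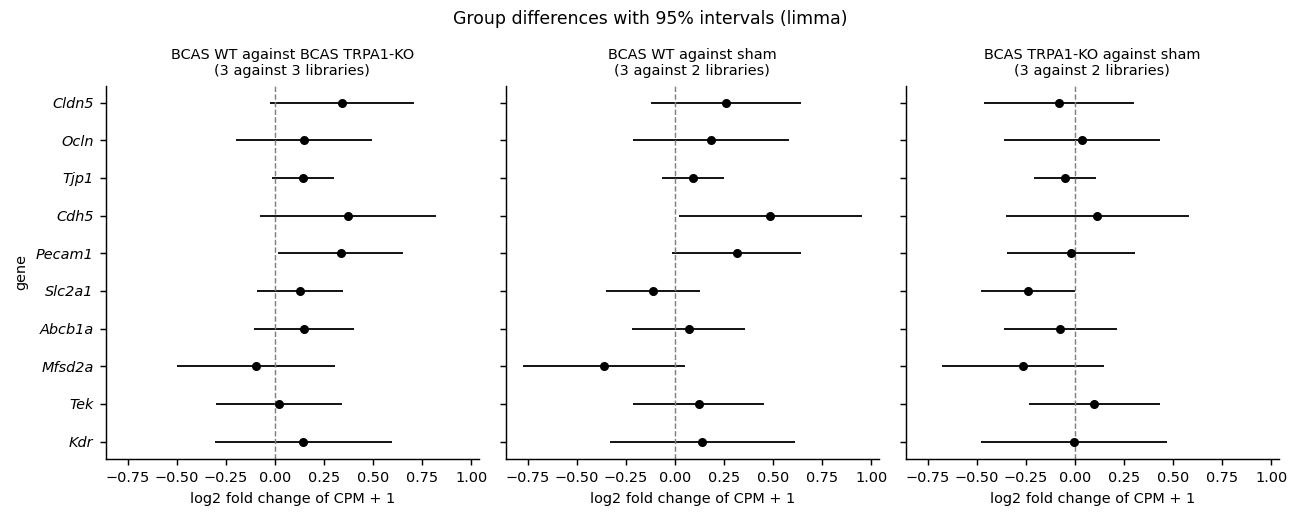
Log2 fold change (horizontal axis, log2 of CPM + 1) of each barrier gene in 3 comparisons, with 95% intervals from limma. The interval excludes 0 for *Pecam1* between the BCAS groups (0.02 to 0.65), for *Cdh5* in BCAS WT against sham (0.02 to 0.95) and, barely, for *Slc2a1* in BCAS TRPA1-KO against sham, before adjustment, and each was lost under some of the alternatives.

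Whether the response to BCAS itself differed between the labels was tested as an interaction over 4 groups. Each sham group held 1 library, so the spread came from the BCAS libraries, which mix days, and a sham library was assumed to vary like them. No member passed (0 adjusted and 0 unadjusted limma p below 0.05, where 1.50% of all genes had an unadjusted one and 0 genes an adjusted one), and 5 of 10 estimates were above 0 (50.9% of all genes). The estimates ran from -0.28 for *Ocln* (95% interval -0.97 to 0.41) to 0.36 for *Kdr* (-0.54 to 1.26). With the labels together, BCAS against sham gave 7 members above 0 (49.5% of all genes) and a median of 0.08, which was -0.02 without the sham library labelled WT. *Mfsd2a* (-0.31, SE 0.17) and *Slc2a1* (-0.18, SE 0.093) were lowest and *Cdh5* highest (0.30, SE 0.19), and 0 members passed at an adjusted or an unadjusted p (0 and 3.54% of all genes). All 4 libraries of each label gave 9 members higher with WT (50.7% of all genes), a median of 0.16, and 0 members at an adjusted or unadjusted p below 0.05 (0.0552% and 3.87%).

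Members did not move as 1 block. Over the 8 libraries, which all pairs share, 32 of 45 pairs of members had a correlation above 0, with a median r of 0.31. *Cdh5* and *Pecam1* were closest (r = 0.83), and *Cdh5* and *Mfsd2a* most opposed (r = -0.73). *Cldn5* tracked the mean of all members best (r = 0.93), while *Tek* (0.08) and *Kdr* (0.15) hardly did and *Mfsd2a* ran against it (-0.30). That mean includes the gene itself, which raises each of these r. The ratio of *Mfsd2a* to *Cldn5* in CPM was 1.19 (WT) and 1.33 (TRPA1-KO) after sham. It was 0.635 on day 7 and 0.703 on day 10 in BCAS WT, and 1.16 on day 14. In BCAS TRPA1-KO it was 1.37, 0.934 and 1.06. This ratio was chosen after the values were seen and was not tested.

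Outside the members, the genes with profiles most like their mean over the 8 libraries were *Alox5* (r = 0.96), *Arid3a* (r = 0.96), *Lrrk1* (r = 0.95), *Prex1* (r = 0.95) and *Irf1* (r = 0.94), of 15142 genes averaging 1 CPM or more. They were picked from all of these by the size of r, so r is a description.

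Other genes of the barrier and its vessels were set beside the members as lists, which are not independent, since *Esam*, *Flt1*, *Tie1*, *Ptprb*, *Sox17* and *Vwf* each stand in more than one. Of 24 further endothelial identity genes, 18 were higher in BCAS WT than in BCAS TRPA1-KO, with a median log2 fold change of 0.18, near the members' 0.15. Those with the smallest p were *Eng*, an endothelial co-receptor for TGF-beta (0.34, SE 0.11), and *Ly6c1* (0.27, SE 0.098). Their sum was 541 to 672 CPM in BCAS WT, 517 to 570 CPM in BCAS TRPA1-KO and 524 to 589 CPM in sham. Of 12 other junction genes 8 were higher, with a median of 0.08, and the smallest p belonged to the tight junction gene *Cgn* (cingulin, -0.28, SE 0.17) and to *Jam2* (0.14, SE 0.084). Against sham, *Jam2* was 0.25 (SE 0.091, limma adjusted p = 0.88) in BCAS WT. Among 17 other transport genes 13 were higher, with a median of 0.06, led by *Tfrc*, the transferrin receptor (0.19, SE 0.075), and *Slco2b1* (0.43, SE 0.25). None of these genes had an adjusted limma p below 0.05. Against sham in BCAS WT, the medians of the other junction genes and the other transport genes were 0.078 and 0.079, so these larger lists did not part as the members' medians did (0.26 and -0.11). In BCAS TRPA1-KO they were 0.04 and -0.01.

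Of 15 genes listed as ligands, partners or relatives of these for TIE2 and VEGFR2, 12 were higher in BCAS WT than in BCAS TRPA1-KO (median 0.13). Not all of them encode ligands of these receptors, and *Angptl4* does not. *Angptl4*, a secreted angiopoietin-like protein, had 5.69, 2.52 and 1.87 CPM in BCAS WT and 1.002, 0.320 and 0.832 CPM in BCAS TRPA1-KO. After sham it had 2.89 (WT) and 2.01 CPM (TRPA1-KO), so that only day 7 of BCAS WT was above both sham libraries. The log2 fold change between the BCAS groups was 1.27 (SE 0.31, limma adjusted p = 0.98). Its 0.320 CPM on day 10 in BCAS TRPA1-KO was at the floor of 3 reads. *Angpt2*, which destabilizes vessels through TIE2, was 3.65 CPM on day 7 in BCAS WT and 1.39 and 1.32 CPM on days 10 and 14 (log2 fold change 0.68, SE 0.29, adjusted p = 0.98). Transcytosis and leakage genes were higher in 8 of 10 (median 0.11), with *Cav1*, the coat protein of caveolae, at 0.55 (SE 0.22) and *Cavin1* at 0.32 (SE 0.16). The endothelial Wnt pathway did not lean, with 10 of 19 higher and a median of 0.02. There *Wnt7b* was -0.29 (SE 0.12) and *Apcdd1* 0.34 (SE 0.14), neither below 0.05 after adjustment.

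Genes listed for activated endothelium had 9 of 10 higher in BCAS WT than in BCAS TRPA1-KO and a median of 0.54. *Lcn2* was at 1.31 (SE 0.63), and there were 0 adjusted calls. *Lcn2* and *Cd14* of this list are also made by glia, so its values need not be endothelial alone. Their sum was 72.6 to 182 CPM in BCAS WT, 70.7 to 98.5 CPM in BCAS TRPA1-KO and 76.9 to 94.3 CPM in sham. Of their defining genes, *Selp* was at 0 in 6 libraries and *Sele* in 3. Pericyte markers were higher in 8 of 10 (median 0.17). Microglia markers were higher in 10 of 10 (median 0.67), with sums of 385 to 1153 CPM in BCAS WT, 361 to 522 CPM in BCAS TRPA1-KO and 391 to 394 CPM in sham, and no marker at 0. Astrocyte markers were higher in 8 of 10 (median 0.14), with sums of 4700 to 6146 CPM, 4388 to 5656 CPM and 4618 to 4810 CPM in the same order. The library with the highest junction genes also had the highest sums for these cells. Their part in the members' values was not tested.

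**Figure D4:**
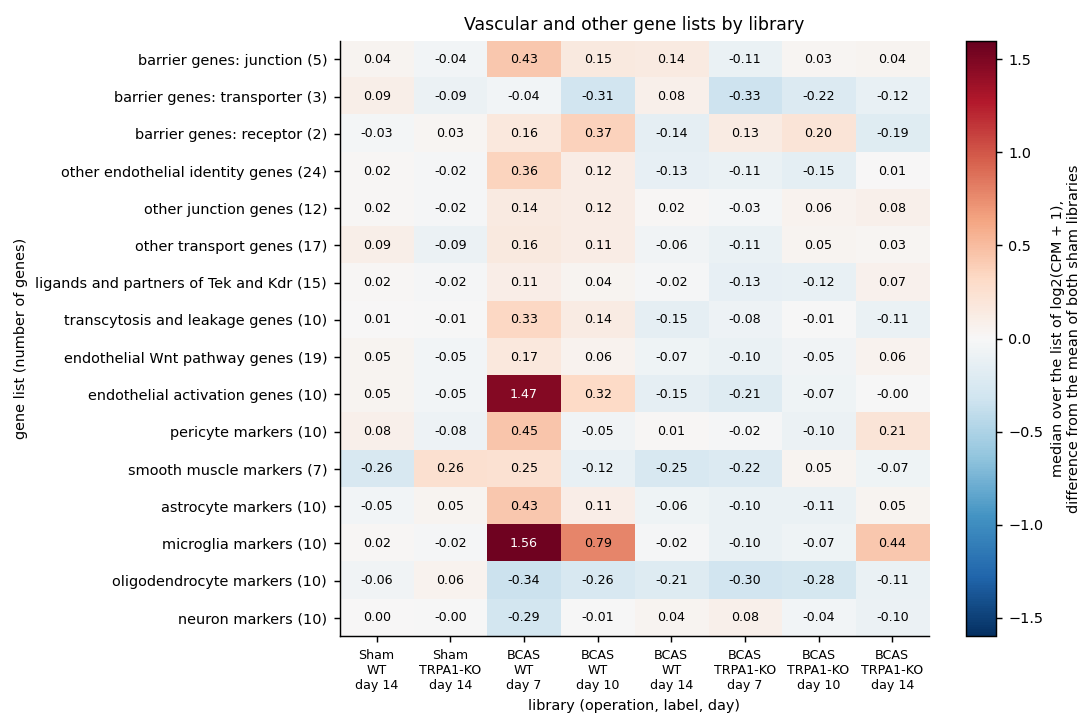
Median over each gene list (rows, number of genes in brackets) of the difference from the mean of both sham libraries on the log2(CPM + 1) scale, by library (columns). On day 7 with the label WT, genes listed for activated endothelium (1.47) and microglia markers (1.56) lie far above sham, junction members at 0.43 and other endothelial genes at 0.36.

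To see the members against the endothelium around them, each member was also divided by the sum of the 24 endothelial identity genes in the same library. This measure was added after the values were seen. The median difference between BCAS WT and BCAS TRPA1-KO was then 0.0017 on the log2 scale, where it was 0.15 in CPM, and no member kept its groups apart. The sum includes *Vwf*, which also stands among the genes of activated endothelium. On day 7 *Vwf* was 82.3 CPM in BCAS WT and 15.6 CPM in BCAS TRPA1-KO, where the sums were 672 and 525 CPM. A sum without *Vwf* was not tested. *Cdh5* (0.24), *Cldn5* (0.21) and *Pecam1* (0.20) were still above 0 and *Mfsd2a* (-0.25) below. Against sham, *Cldn5* (0.17), *Cdh5* (0.41) and *Pecam1* (0.23) in BCAS WT still did not overlap sham, but *Tjp1* did (-0.0072). *Slc2a1* (-0.19) and *Mfsd2a* (-0.23) in BCAS TRPA1-KO stayed below both sham libraries, and *Cdh5* (0.17) in BCAS TRPA1-KO was above both. The share of all genes that do not overlap sham under this division was not computed. In CPM it was 19.9% for BCAS WT and 18.6% for BCAS TRPA1-KO, in either direction. *Slc2a1* was 25.7% (WT) and 25.3% (TRPA1-KO) of the sum after sham, and 21.2%, 22.9% and 22.8% on days 7, 10 and 14 in BCAS TRPA1-KO. In BCAS WT it was 20.4% and 19.6% on days 7 and 10 and 26.5% on day 14.

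**Figure D5:**
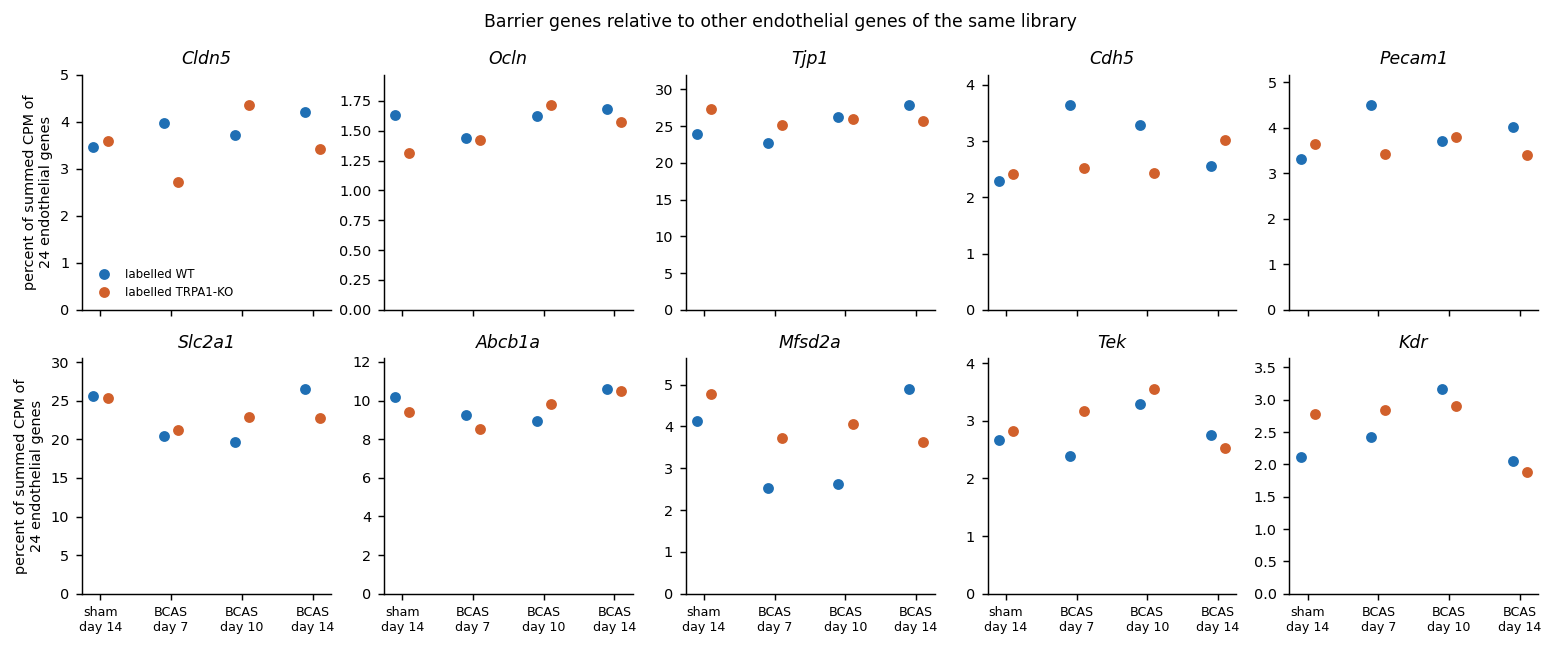
Each barrier gene as a percent of the summed CPM of 24 other endothelial genes in the same library (vertical axis, from 0), by operation and day and label. *Slc2a1* lies lowest in the BCAS libraries of days 7 and 10 labelled WT (20.4% and 19.6%), and the labels overlap for every barrier gene.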

How the data were processed

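Libraries were made from polyadenylated RNA, 8 in all. Clean reads were mapped to GRCm38 with HISAT, counted per gene with subread and normalized with edgeR. As deposited, the signal was made by the authors by dividing each gene's counts by an effective library size, expressed as CPM (sums of 966202 to 1022161). All values (100%) were whole multiples of 1 read within 0.01 read, so reads were recovered (7896071 to 12952093 per library). Gene annotation and strand setting are not given in the sources used here.

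The test on log2(CPM + 1) was limma 3.58.1 (lmFit, eBayes with trend) in R 4.3.3 over the 18123 of 25239 genes that averaged 0.1 CPM or more, adjusted by the Benjamini-Hochberg method, and fold changes are on that scale. All 10 members passed this filter. Both sham libraries formed 1 group. Exact two-sided permutation tests were run on log2(CPM + 1) with scipy 1.17.1. On the recovered reads, edgeR 4.0.16 (quasi-likelihood) and DESeq2 1.42.0 were alternatives, as were another pseudocount (0.1), other filters, equalized medians, the day as a replicate block, each library left out, and division by other endothelial genes, which was added after seeing the data. The scripts were tested on simulated data. Intervals and floors (3 reads, 0.235 to 0.378 CPM) cover counting error only. Log2 values had been assumed in planning, and the test was not changed.

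Named were all 10 members, in other lists the genes with the smallest p, and the 5 genes with profiles most like the members. Members and lists were chosen with earlier results of these data known. A gene of the lists is not reported here.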

Additional observations from a re-analysis of the deposited data

Results flagged for a closer look

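Dixon's test for a library far from the rest of its group was run 30 times, over the libraries of a label or all BCAS libraries, and 5 passed its 95% critical value, where chance gives about 1 in 20. In the 4 libraries labelled WT, *Tjp1* of the sham library (141 CPM) lay below the other 3. In the 4 libraries labelled TRPA1-KO, *Cdh5* was high (17.2 CPM) and *Kdr* low (10.7 CPM) in the BCAS library of day 14. Among the 6 BCAS libraries, *Pecam1* was high (30.2 CPM) on day 7 with the label WT and *Ocln* low (7.46 CPM) on day 7 with the label TRPA1-KO. The groups mix days or operations, and the reason for these values was not tested.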

How the results depend on the processing

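The count of members with an adjusted p below 0.05 was 0 under every alternative run. The median change of the members stayed within the spread between libraries except as follows. Relative to other endothelial genes it was 0.0017 in BCAS WT against BCAS TRPA1-KO, 0.037 in BCAS WT against sham and 0.0084 in WT against TRPA1-KO over all libraries. With single libraries left out it ran from 0.092 to 0.20 in BCAS WT against sham (0.20 without day 14 of BCAS WT), and from 0.0023 to 0.13 for the difference between the BCAS effects (0.13 without day 10 of BCAS WT). The day was also used as a replicate block. Same-day libraries did not deviate together (mean correlation -0.12, from -0.26 to 0.0051), and with the block, which in this balanced layout cannot move the median of the BCAS comparison (0.15), 0 members in place of 1 had an unadjusted p below 0.05 and 1 gene in place of 3 an adjusted one. With operation and day as the block over all libraries the median of 0.16 is likewise fixed by the layout, and 6 genes in place of 10 passed.

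Counts over all genes moved more. DESeq2 called 17 genes in place of 3 between the BCAS groups, 24 in place of 0 in BCAS WT against sham, 4 in place of 1 in BCAS TRPA1-KO against sham and 11 in place of 0 with the labels together. Without day 14 of BCAS WT, limma called 29 and 45 genes in the first pair of these. Unadjusted member counts ran from 0 to 3 between the BCAS groups and in BCAS WT against sham, and from 0 to 2 in BCAS TRPA1-KO against sham.

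Signs of small values turned. Against the sham library of the same label, BCAS WT gave -0.029 for *Ocln* and -0.070 for *Abcb1a*, and BCAS TRPA1-KO 0.064 for *Abcb1a*. In BCAS TRPA1-KO against sham, *Kdr* was 0.011 in edgeR and 0.013 in DESeq2. In BCAS against sham with the labels together, *Abcb1a* was 0.0077 in edgeR, 0.0085 in DESeq2 and 0.11 on day 14 alone, where *Tek* was -0.051 and *Kdr* -0.28. The cause was not tested.

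Leaving out single libraries turned these signs. In BCAS WT against BCAS TRPA1-KO the ranges were -0.32 to 0.054 (*Mfsd2a*), -0.077 to 0.099 (*Tek*) and -0.0043 to 0.34 (*Kdr*). In BCAS WT against sham they were -0.029 to 0.40 (*Ocln*), -0.070 to 0.21 (*Abcb1a*) and -0.0022 to 0.34 (*Kdr*). In BCAS TRPA1-KO against sham they were -0.22 to 0.091 (*Cldn5*), -0.18 to 0.25 (*Ocln*), -0.014 to 0.20 (*Cdh5*), -0.043 to 0.015 (*Pecam1*), -0.22 to 0.064 (*Abcb1a*) and -0.11 to 0.14 (*Kdr*). With the labels together they were -0.027 to 0.20 (*Cldn5*), -0.029 to 0.25 (*Ocln*), -0.062 to 0.10 (*Tjp1*), -0.0062 to 0.30 (*Pecam1*), -0.070 to 0.064 (*Abcb1a*) and -0.11 to 0.25 (*Kdr*). For WT against TRPA1-KO over all libraries they were -0.24 to 0.027 (*Mfsd2a*), -0.031 to 0.093 (*Tek*) and -0.066 to 0.18 (*Kdr*), and for the difference between BCAS effects -0.12 to 0.043 (*Slc2a1*), -0.28 to 0.094 (*Mfsd2a*) and -0.16 to 0.021 (*Tek*).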

Other observations

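Wall cells and other neighbours of the endothelium were also measured. Against sham, the pericyte genes *Pdgfrb* and *Atp13a5* were higher by 0.34 (SE 0.12) and 0.41 (SE 0.16) in BCAS WT on the log2 scale, and 8 of 10 pericyte markers were above 0 (median 0.17). Of 7 smooth muscle markers 3 were above 0 (median -0.07), with the contractile gene *Myh11* at -1.10 (SE 0.34), from 9.94 CPM (WT) and 9.01 CPM (TRPA1-KO) after sham to 4.45, 2.14 and 5.82 CPM on days 7, 10 and 14. Fibroblast markers were above 0 in 6 of 9 (median 0.35), with *Col1a2* at 0.62 (SE 0.19) and *Pdgfra* at -0.23 (SE 0.090). *Pdgfra* was the most abundant gene of that list, at 52.7 to 68.8 CPM. The study used its protein to mark oligodendrocyte precursors, so its value cannot be assigned to fibroblasts. None had an adjusted limma p below 0.05.

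Oligodendrocyte markers were below 0 in 9 of 10 in BCAS WT against sham (median -0.29) and in 8 of 10 in BCAS TRPA1-KO (median -0.23), where 1 passed adjustment, the myelin gene *Mog* (-0.73). No gene passed in that comparison with no filter on low values, against the sham library of the same label alone, or without the sham library labelled WT, day 10 or day 14 of BCAS WT, or any one of the BCAS libraries labelled TRPA1-KO. Neuron markers were below 0 in 8 of 10 in BCAS WT (median -0.09), with the striatal genes *Ppp1r1b* (-0.75) and *Drd1* (-0.73) lowest by p. Ependymal and choroid plexus markers had a median of 0.02 there. The 5 blood cell markers, read beside vessel genes because blood is left in the vessels, summed to 1.11 to 202 CPM, with the highest value in the sham library labelled TRPA1-KO.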
